A study of Mus musculus with 7 samples.

Results

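The 10 genes described here, Pvalb, Sst, Vip, Calb1, Calb2, Lhx6, Reln, Npy, Cck and Nos1, are used to tell classes of inhibitory interneurons apart. They were taken from the table of normalized counts by gene symbol, and all 10 were found among its 19257 genes. The 10 also lay among the 14782 genes whose mean over the libraries reached 10 normalized counts, over which the groups were compared. RNA was sequenced from tumor tissue of mice at the endpoint of a glioma model, 1 library per brain. All animals had received, by in utero electroporation, a construct with Cas9 and guides to tumor suppressor genes such as Trp53 and Nf1, and a piggyBac transposon that labels cells with GFP. In the 3xCR group (3 libraries, replicates 2, 3 and 4, with the genotype control in the labels) nothing else was introduced, whereas in the GPC6 group (4 libraries, replicates 1 to 4) GPC6, a cell surface glypican, was also overexpressed from a piggyBac transposon. The mice were of CD-1 and C57BL/6 backgrounds, and the age of the animal behind each library was not given in the sources used here. The electroporated cells were progenitors at the lateral ventricle, and the tissue was collected under fluorescence, so that each library holds RNA of tumor cells and of whatever brain cells lay among them. In such bulk samples, fewer cells of a type and less RNA per cell cannot be told apart.

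Interneurons release GABA and restrain the excitatory cells around them. Those that arise in the medial ganglionic eminence express the transcription factor Lhx6 and mature into fast-spiking cells with the calcium-binding protein parvalbumin (Pvalb), which contact cell bodies, or into cells with somatostatin (Sst), which contact dendrites. Those of the caudal eminence include cells with vasoactive intestinal peptide (Vip), many with calretinin (Calb2), that inhibit other interneurons, and neurogliaform cells, many with reelin (Reln). None of the markers is restricted to interneurons. Cholecystokinin (Cck) is abundant in cortical pyramidal cells, calbindin (Calb1) is found in pyramidal cells and striatal projection neurons, Sst, neuropeptide Y (Npy) and neuronal nitric oxide synthase (Nos1) are found in neurons of many regions, and Pvalb is also a protein of fast skeletal muscle.

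The libraries held 7197692 to 18879762 reads on genes, with a median of 10566182, so that a count of 0 in a library allows up to 1.64 to 4.64 normalized counts, by counting error alone. Some libraries stood apart. The library labelled GPC6 replicate 2 had 263 normalized counts of Gpc6, near the 126 to 226 of the 3xCR libraries. GPC6 replicates 1, 3 and 4 had 675, 3434 and 5084, so that replicate 1 was far below replicates 3 and 4. GPC6 replicate 1 had the highest summed count of a list of 7 hypothalamic genes (1182, against 16.7 to 65.6 in the other 6 libraries) and the lowest of 6 proliferation genes (470, against 3814 to 10792). The summed count of 15 pan-neuronal genes ranged from 8772 to 15729 among 3xCR and from 12022 to 80089 among GPC6 libraries. RNA of this list was thus present in every library, in unequal amount. Values without GPC6 replicates 1 and 2 are therefore given beside the results that rest on them.

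The mean log2 value of all 10 markers was higher in the GPC6 tumors, with log2 fold changes between 0.62 (Pvalb) and 2.56 (Vip) and a median of 1.45, beside a median of -0.02 over all genes tested. A higher mean was found for 48.3% of all genes. By limma with Benjamini-Hochberg adjustment over all genes, 0 of the 10 markers passed 0.05 after adjustment (0% of the genes tested) and 0 passed it before adjustment (4.66% of the genes). The smallest adjusted p among the markers was 0.730. The groups overlapped in all 10, where they did not overlap in 6.32% of all genes (2.8% with GPC6 higher and 3.52% with GPC6 lower). On the reads recovered from the table, edgeR, DESeq2 and voom likewise left 0 markers past 0.05 after adjustment (0%, 0.0211% and 0% of all genes). Before adjustment 2 markers passed in edgeR (Calb2 and Sst, beside 6.7% of all genes) and 0 in voom (beside 3.38%). In DESeq2 4 passed (Sst, Calb2, Nos1 and Cck, beside 9.77%). The DESeq2 shares are of 18973 genes, without the filter on the mean, and those of edgeR and voom of the 14782, so they are not directly comparable. The calls changed when limma was given a weight for each library. Then 7 markers passed after adjustment (all but Pvalb, Vip and Cck, beside 13.3% of all genes) and 9 before it (all but Pvalb, beside 34.5%), in a fit where 3xCR replicate 3 and GPC6 replicate 3 had weights of 8.71 and 4.47 and the other 5 libraries 0.301 to 0.849.

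**Figure D1:**
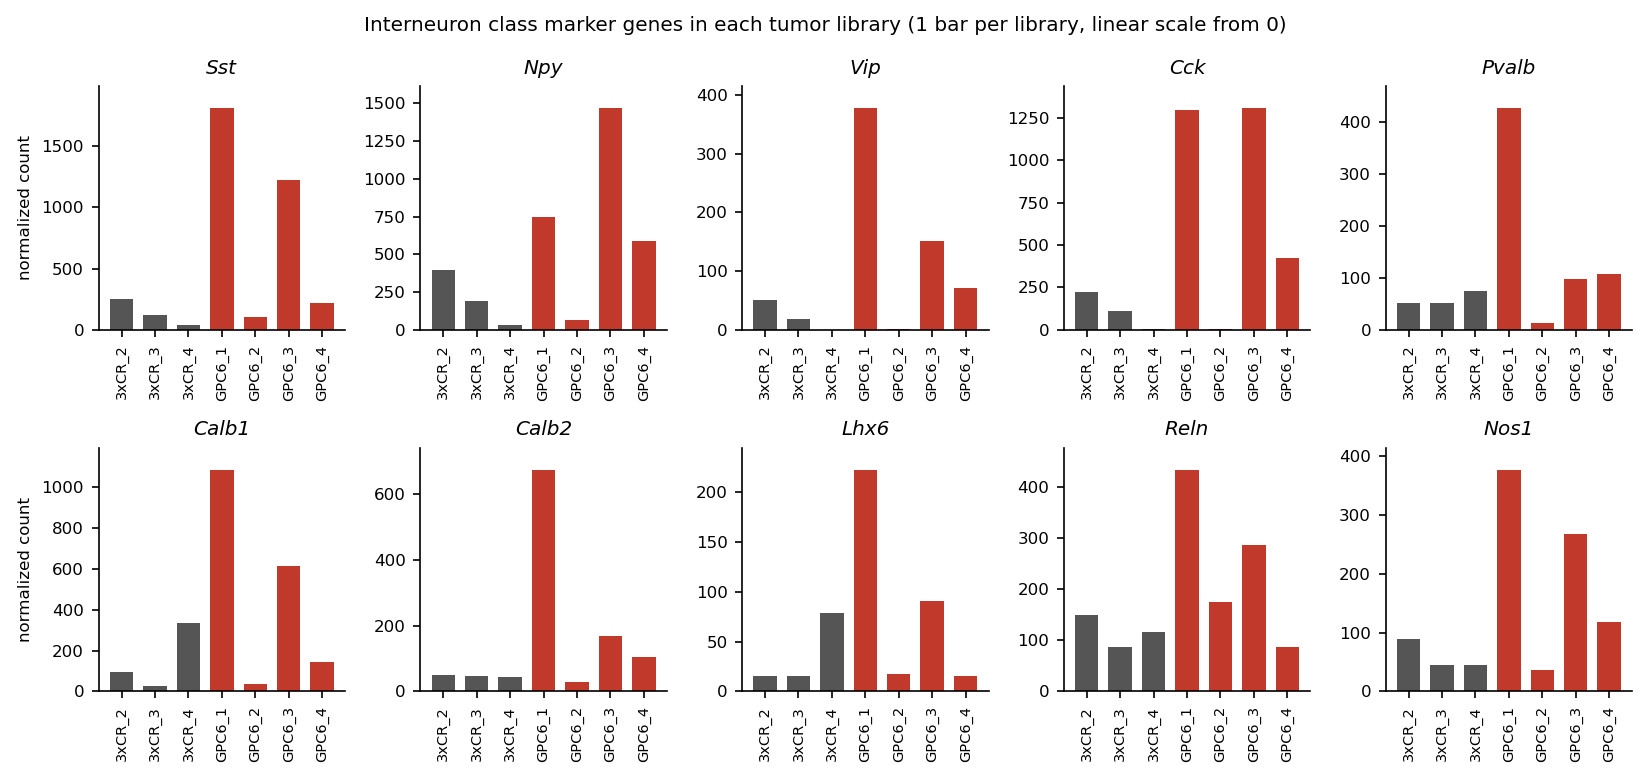
Normalized counts of the 10 interneuron markers (y axis, linear scale from 0, a scale of its own for each gene) in each of the 7 libraries (x axis, group and replicate), 1 bar per library, with 3xCR in grey and GPC6 in red. GPC6 replicate 1 held the highest value of 8 markers and GPC6 replicate 3 that of the other 2, Npy and Cck, while GPC6 replicate 2 lay within or below the 3xCR range for 9 of the 10, the exception being Reln.

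The markers varied widely between tumors of the GPC6 group. GPC6 replicates 1 and 3 were above the other 5 libraries in 9 of the 10 markers (all but Pvalb), which held for 16.9% of all genes. At the other end, GPC6 replicate 2 was among the lowest 2 libraries in 8 markers and 3xCR replicate 4 in 5. The summed normalized count of the 10 markers was 1366, 716 and 772 in the 3xCR libraries (replicates 2, 3 and 4), and the GPC6 libraries (replicates 1 to 4) held 7452, 489, 5671 and 1873. Both the highest and the lowest sum thus came from GPC6 tumors.

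Among the neuropeptides, Sst, which slows release from many neurons and marks the dendrite-targeting class, lies on chromosome 16 of GRCm38 (23889573 to 23890958). In the order of their replicate numbers, the 3xCR libraries held 249, 120 and 38.7 normalized counts of Sst and the GPC6 libraries 1811, 104, 1221 and 217. GPC6 replicates 1 and 3 were far above the rest, and the other 2 GPC6 tumors lay within the 3xCR range. The group means were 136 ± 106 (SD, n = 3) and 838 ± 820 (SD, n = 4), a log2 fold change of 2.16 with a standard error of 1.08 (limma adjusted p = 0.730). Sst had the smallest unadjusted p of the 10 markers in this fit (0.0812). Npy, a peptide of part of the Sst class and of neurogliaform cells (chromosome 6, 49822710 to 49829507), had 398, 190 and 34.5 normalized counts in the 3xCR libraries and 747, 67.2, 1467 and 590 in the GPC6 libraries. In contrast to Sst, its highest value was in GPC6 replicate 3, and 3 of the 4 GPC6 tumors were above every 3xCR tumor. The log2 fold change of Npy was 1.72 with a standard error of 1.15 (limma adjusted p = 0.731).

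Vip, which marks interneurons that act on other interneurons (chromosome 10, 5639218 to 5647617), had 51.0, 18.6 and 0 normalized counts in the 3xCR libraries and 377, 1.98, 151 and 71.0 in the GPC6 libraries. The 0 of 3xCR replicate 4 allows up to 4.14 normalized counts, and the 1.98 of GPC6 replicate 2 stands for 2 reads, so that Vip was at or near the limit of detection in 1 tumor of each group. Its log2 fold change, 2.56 with a standard error of 1.87, had both the largest size and the second largest error of the 10 (limma adjusted p = 0.734). Cck, a peptide of basket cells and pyramidal cells (chromosome 9, 121489824 to 121495694), ranked the lower 5 libraries as Vip did, with 221, 113 and 6.91 normalized counts in the 3xCR libraries and 1295, 6.92, 1306 and 422 in the GPC6 libraries. Its lowest values again were in 3xCR replicate 4 and GPC6 replicate 2, and its highest library exceeded its lowest 189-fold, the widest range among the 9 markers with a read in every library. The log2 fold change of Cck was 2.23 with a standard error of 1.93 (limma adjusted p = 0.755).

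Among these, 3 peptide genes and Nos1 carry, in front of their start sites, letters of the cAMP response element, a site bound by CREB, a factor that is activated in active neurons. The stretches are shown for every gene with a match, and a part of these letters in the marker values was not tested. RefSeq promoters (GRCm38.p6) were matched for 8 of the 10 markers (11 promoters), and the 250 bases before each start were searched. The full element TGACGTCA, which reads the same on both strands, is in 1.55% of all 32851 promoters and was found in Sst only, 48 bases before the start. Its shorter core TGACG, searched on both strands and contained in the full element, is in 17.8% of all promoters. It was found in 4 of the 11 promoters, which belong to 4 of the 8 genes. Each stretch is written 5′ to 3′ on the strand of its gene, with the element or core in capitals (CGTCA is the core on the opposite strand).
Sst (chr16:23890865-23890912, minus strand): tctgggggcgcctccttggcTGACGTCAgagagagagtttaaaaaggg
Vip (chr10:5639119-5639163, plus strand): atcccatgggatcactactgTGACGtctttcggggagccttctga
Cck (chr9:121495717-121495761, minus strand): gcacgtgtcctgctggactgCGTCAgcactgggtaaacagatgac
Nos1 (chr5:117866689-117866733, plus strand): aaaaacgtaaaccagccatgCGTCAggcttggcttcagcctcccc
The core lay 79, 47 and 130 bases before the start in Vip, Cck and Nos1. The distances are from RefSeq starts, and in the GENCODE annotation the stretches of Sst and Nos1 lie inside the span of the gene. In the windows of Npy, Pvalb, Lhx6 and Reln these letters were not present. Across the libraries, r with Vip and with Cck was 0.961 and 0.976 for Npy, and 0.923 and 0.893 for Sst. A match of letters is a description of the sequence, and binding was not measured.

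Among the calcium-binding proteins, Pvalb, which buffers calcium in fast-spiking cells (chromosome 15, 78191114 to 78206400), had 51.0, 52.1 and 74.6 normalized counts in the 3xCR libraries and 427, 13.8, 98.5 and 108 in the GPC6 libraries. The 3xCR tumors lay close together, 3 GPC6 tumors were above them and GPC6 replicate 2 was below all of them. Its log2 fold change, 0.62 with a standard error of 0.98, was the smallest of the 10 (limma adjusted p = 0.862), and without GPC6 replicate 1 it turned to -0.12. Of 5 skeletal muscle genes, 4 (Ckm, Myh4, Mylpf and Tnnt3) were below the filter on low values, and the summed count of the 5 was 13.8 to 18.6 in 3xCR and 10.9 to 116 in GPC6 tumors, highest in GPC6 replicate 1 where Acta1, the skeletal muscle actin, had 97.4. In the same library Ckm, Myh4, Mylpf and Tnnt3 had 1.55, 9.27, 7.73 and 0 normalized counts. The part of muscle RNA in the Pvalb value was not tested. Calb2, calretinin (chromosome 8, 110137502 to 110168210), had 48.8, 46.5 and 42.8 normalized counts in the 3xCR libraries and 674, 29.6, 167 and 104 in the GPC6 libraries. The 3xCR tumors differed by less than in any other marker (46.0 ± 3.01, SD, n = 3), and 3 GPC6 tumors were above them and 1 below. The log2 fold change of Calb2 was 1.56 with a standard error of 0.91 (limma adjusted p = 0.730).

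Calb1, calbindin (chromosome 4, 15881264 to 15908064), had 92.6, 27.9 and 334 normalized counts in the 3xCR libraries and 1087, 37.5, 617 and 143 in the GPC6 libraries. Here 3xCR replicate 4, the library without a read of Vip, was the third highest of the 7 libraries. The log2 fold change of Calb1 was 1.35 with a standard error of 1.25 (limma adjusted p = 0.766). It was 2.25 without 3xCR replicate 4, 0.48 without 3xCR replicate 3 and 0.64 without GPC6 replicate 1.

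Lhx6, the transcription factor of the medial eminence lineage (chromosome 2, 36081953 to 36105408), had 15.9, 15.8 and 78.7 normalized counts in the 3xCR libraries and 223, 17.8, 90.5 and 15.4 in the GPC6 libraries. Again 3xCR replicate 4 was the third highest, next to GPC6 replicates 1 and 3, while the other 4 libraries lay between 15.4 and 17.8. The log2 fold change was 0.83 with a standard error of 1.05 (limma adjusted p = 0.825), and 0.11 without GPC6 replicate 1. Reln, a secreted glycoprotein that guides cortical layering (chromosome 5, 21884454 to 22344702), had 150, 86.5 and 116 normalized counts in the 3xCR libraries and 434, 175, 287 and 86.4 in the GPC6 libraries. It was the only marker for which GPC6 replicate 2 was above every 3xCR tumor, while GPC6 replicate 4 was at the level of the lowest. Its log2 fold change was 0.86 with a standard error of 0.54 (limma adjusted p = 0.730). Cajal-Retzius cells also make reelin, and the summed count of 3 of their genes (Trp73, Lhx1 and Lhx5) was 3.84 to 15.2 in 3xCR and 0 to 49.5 in GPC6 tumors, highest in GPC6 replicate 1 and 0 in GPC6 replicates 2 and 4. Nos1, which makes nitric oxide (chromosome 5, 117781032 to 117958840), had 89.3, 45.6 and 45.6 normalized counts in the 3xCR libraries and 377, 35.6, 267 and 117 in the GPC6 libraries. Its highest libraries were those of Sst, with 3 GPC6 tumors above every 3xCR tumor, and had a log2 fold change of 1.32 with a standard error of 0.78 (limma adjusted p = 0.730). Exons of Reln and Nos1 share 246 and 268 bases with antisense genes and those of Lhx6 share 104 bases with a short RNA gene on its own strand, and the strand setting of the counting was not given in the sources used here, so reads in these bases cannot be assigned.

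**Figure D2:**
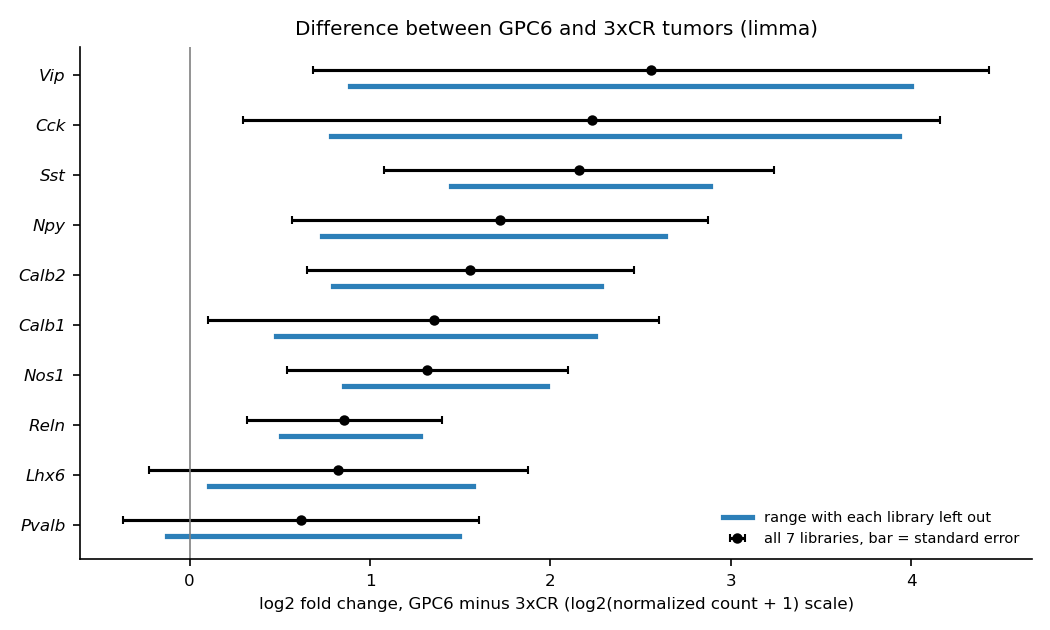
Fold change of each marker in limma (x axis, log2, GPC6 minus 3xCR, on the log2(normalized count + 1) scale), 1 row per marker (y axis). Black points are the limma estimates over all 7 libraries with bars of 1 standard error, and blue lines span the estimates obtained without any 1 of the libraries. The points run from 0.62 for Pvalb to 2.56 for Vip, and the blue line of Pvalb crosses 0.

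The size of the differences depended on single libraries. Without GPC6 replicate 1, the median log2 fold change of the 10 markers was 0.82. In this fit 0 markers had an unadjusted p under 0.05 by limma, beside 459 of all genes tested. Pvalb was then at -0.12 and Lhx6 at 0.11, and the other 8 markers lay between 0.51 (Reln) and 1.67 (Vip). Without the library labelled GPC6 replicate 2, the median log2 fold change of the 10 markers was 2.26, and 7 of the 10 had an unadjusted p under 0.05 by limma (Pvalb, Sst, Vip, Calb2, Npy, Cck and Nos1), beside 9.45% of all genes. The groups then no longer overlapped in 6 markers (the same list without Sst, all with GPC6 higher), beside 16.1% of all genes and 7.94% with GPC6 higher. The smallest adjusted p of a marker was 0.526 in this fit, so that 0 passed adjustment. Without GPC6 replicates 1 and 2 together, the median was 1.62, 4 markers had an unadjusted p under 0.05 (Calb2, Npy, Cck and Nos1, beside 6.09% of all genes) and the same 6 markers lay above all 3xCR tumors (beside 23.7% of all genes without overlap and 10.9% with GPC6 higher). Without GPC6 replicate 4, Reln alone had an unadjusted p under 0.05 (beside 7.83% of all genes) and alone did not overlap (beside 14.4%, and 6.62% with GPC6 higher). The library labelled GPC6 replicate 2 was set aside for its Gpc6 level, and it was also the library with the lowest summed marker count.

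Per kilobase of exon, the markers kept a similar order in both groups. In the 3xCR tumors the mean normalized count per kilobase was highest for Npy (367) and Sst (188), followed by Cck (87.2), Pvalb (56.9), Calb1 (31.3), Calb2 (26.4), Lhx6 (7.66), Vip (6.82), Nos1 (5.40) and Reln (4.95). In the GPC6 tumors the order was Npy (1268), Sst (1163), Cck (580), Pvalb (155), Calb2 (140), Calb1 (97.2), Vip (44.2), Lhx6 (18.0), Nos1 (17.9) and Reln (10.3). The level of 1 marker exceeded that of the next by more than the larger of their standard deviations in 1 case only, Calb2 over Lhx6 in the 3xCR tumors, and in no case in the GPC6 tumors. The position of Pvalb was not stable between libraries, as Pvalb exceeded Cck per kilobase in 3xCR replicate 4 (71.6 against 5.29) and in GPC6 replicate 2 (13.3 against 5.30) and was below it in the other 5 libraries.

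The summed count of the 15 pan-neuronal genes was unequal between libraries. The genes of this list did not move alike, with log2 fold changes from 0.16 (Stmn2) to 3.02 (Snap25). In 3xCR replicate 4, Stmn2 had 1776 and Snap25 126 normalized counts, against 287 to 500 and 681 to 1440 in the other 3xCR libraries. With this limit, each marker was also set beside the 15 genes, by subtracting their mean log2 value in the same library. On this scale 0 of the 10 markers had groups that did not overlap (4.14% of all genes), and the difference between GPC6 and 3xCR tumors ranged from -0.91 (Pvalb) to 1.03 (Vip) with a median of -0.08, beside a median of -1.55 over all genes. Without GPC6 replicate 2 the groups did not overlap on this scale for 2 markers (Cck higher and Reln lower in GPC6 tumors, beside 55.4% of all genes), without GPC6 replicates 1 and 2 for 3 (Npy and Cck higher and Reln lower, beside 57.3%), and without 3xCR replicate 2 for 1 (Sst higher, beside 28.8%). With the pan-neuronal score as a covariate in limma, 9 of the 10 markers had a negative coefficient for GPC6 (Reln, at 0.13, was the exception), the median was -0.26, and 0 passed 0.05 with or without adjustment (0% and 2.12% of all genes). The standard errors of these coefficients ranged from 0.33 (Sst) to 1.26 (Calb1).

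The subtraction took up the variation of some markers and not of others. The standard deviation over the 7 libraries (log2) was 1.97 before and 0.64 after it for Sst, 1.31 and 0.36 for Nos1, and 1.55 and 0.57 for Calb2. It changed least for Reln (0.87 and 0.86) and Lhx6 (1.56 and 1.30), and Vip and Cck kept the widest spread (1.90 and 2.00). Nos1 stayed between -3.28 and -2.25 in every library, so that its level beside the pan-neuronal genes varied by 1.03 on the log2 scale, the least of the 10.

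**Figure D3:**
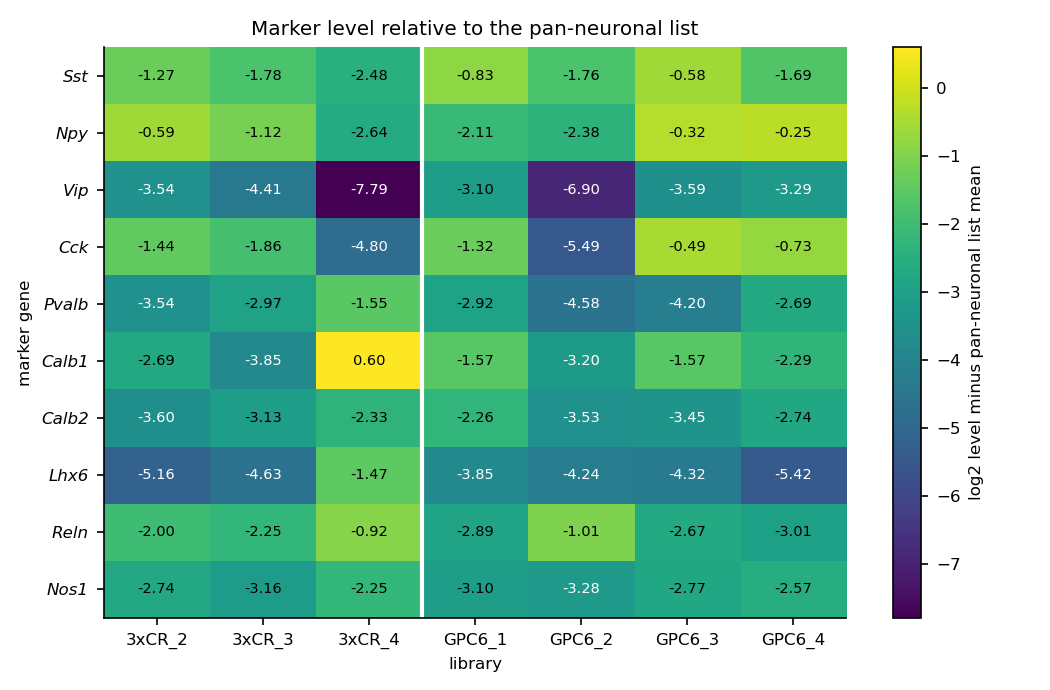
Level of each marker (y axis) in each library (x axis, with the 3xCR libraries left of the white line) relative to the pan-neuronal list, as the log2 value of the marker minus the mean log2 value of the 15 list genes in the same library. The row of Nos1 is nearly even, 3xCR replicate 4 holds the highest values of Pvalb, Calb1, Lhx6, Reln and Nos1, and Vip and Cck are lowest in 3xCR replicate 4 and GPC6 replicate 2.

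Across the 7 libraries, Sst followed the pan-neuronal score most closely of the markers, with a Pearson r of 0.991 (two-sided exact permutation test, p = 0.000397, adjusted p = 0.0283 over all genes tested) and a Spearman rho of 0.964 (exact permutation p = 0.00278, adjusted p = 0.0715). Nos1 (r = 0.963, adjusted p = 0.0328; rho = 0.893, adjusted p = 0.134, exact permutation tests) and Calb2 (r = 0.932, adjusted p = 0.0374; rho = 0.964, adjusted p = 0.0715, exact permutation tests) also passed adjustment by Pearson r and not by rho, beside 9.17% of all genes by Pearson r. With Vip, 4 of the 10 markers had an r above 0.9, as had 7.72% of all genes. For Vip it was the reverse, with r = 0.918 (adjusted p = 0.0546) and rho = 1 (exact permutation p = 0.000397, adjusted p = 0.0425). The order of the libraries by Vip was that of the score, and its lowest values stand for 0 and 2 reads. The share of all genes that passed by rho is not given here, so this call has no background beside it. Without GPC6 replicates 1 and 3, the libraries farthest from the median score, r was 0.977 for Sst, 0.815 for Nos1, 0.666 for Calb2 and 0.969 for Vip.

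Npy and Cck had r of 0.867 and 0.888 (rho 0.964 for each) and did not pass adjustment (adjusted p = 0.0838 and 0.0787 for r, exact permutation tests), and without the same libraries r was 0.979 and 0.906. The other 4 markers were looser, with r of 0.793 for Reln, 0.745 for Pvalb, 0.684 for Calb1 and 0.609 for Lhx6 (exact permutation tests, adjusted p = 0.142, 0.166, 0.234 and 0.322) and rho of 0.464, 0.714, 0.607 and 0.321 (adjusted p = 0.553, 0.338, 0.440 and 0.712). In these 4 the relation rested on GPC6 replicates 1 and 3, since without them r was -0.22 for Reln, 0.26 for Pvalb, -0.24 for Calb1 and -0.83 for Lhx6. All values of a library share its depth and its piece of tissue, 10 relations were computed among the markers, and the median r over all genes was -0.08.

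**Figure D4:**
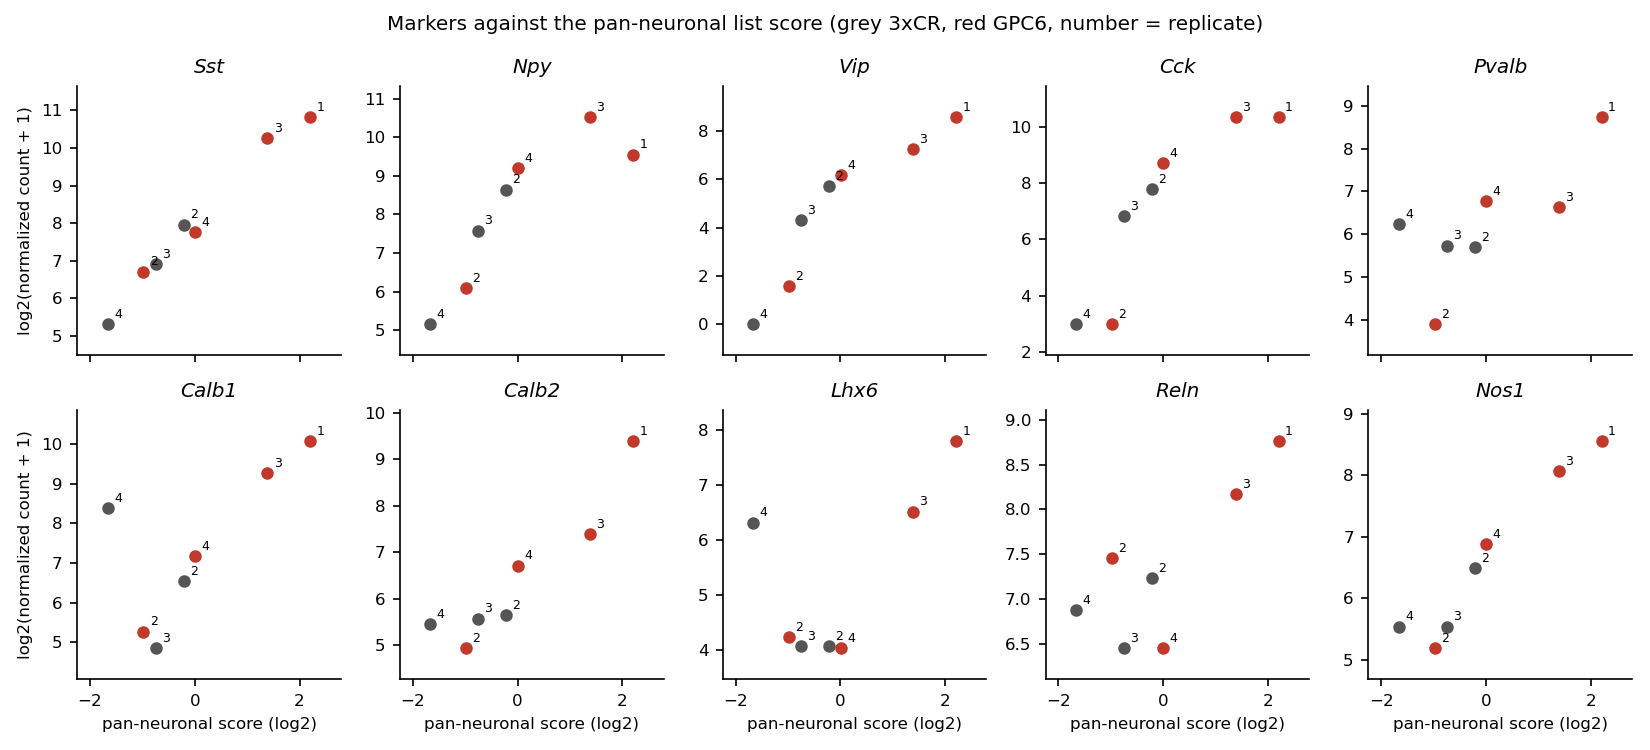
Log2(normalized count + 1) of each marker (y axis, a scale of its own for each gene) against the pan-neuronal list score (x axis, mean log2 value of the 15 list genes, each centered over the 7 libraries), 1 point per library with its replicate number, 3xCR in grey and GPC6 in red. Sst, Nos1, Calb2 and Vip have the highest r with the score (0.991, 0.963, 0.932 and 0.918). In Lhx6 and Calb1, 3xCR replicate 4, at the lowest score, lies well above the other low libraries.

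The markers varied together to different degrees. Over the 45 pairs of markers, r across the 7 libraries had a median of 0.753, with no test since the libraries are shared by all pairs. The closest pairs were Vip with Cck (0.980), Npy with Cck (0.976) and Vip with Npy (0.961). The loosest were Lhx6 with Npy (0.238), with Vip (0.306) and with Cck (0.334). Among the 8 pairs with r below 0.5, all but 1 joined Lhx6, Calb1 or Reln to 1 of the peptides Npy, Vip and Cck, and the remaining pair was Pvalb with Reln.

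The genes whose log2 values over the 7 libraries were most like those of a marker were found among all genes tested and are given with no test. For Sst they were Hrk (r = 0.999), a death agonist of neurons, and Syp (0.998), the synaptic vesicle protein synaptophysin. For Vip they were Emx1 (0.995), a transcription factor of cortical excitatory neurons, and Rbp4 (0.993), a retinol carrier. The closest to Npy was Slc17a7 (0.983), the vesicular glutamate transporter of cortical excitatory cells, followed by Hs3st2 (0.980), and Cck was closest to BC048546 (0.993) and Slc30a3 (0.989), the zinc transporter of glutamatergic vesicles. For Nos1 they were Gm14204 and Thy1 (0.993 and 0.992), for Reln Pde4a and Faah (0.996 and 0.995), for Calb1 Ccdc28a and Eomes (0.987 and 0.985), for Lhx6 Slc52a3 and Efnb2 (0.984 and 0.980) and for Pvalb Glp2r and Foxo1 (0.989 and 0.987).

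The other genes of the interneuron classes were described by lists. In a list of 8 genes of GABAergic identity, 8 of 8 had their higher mean in GPC6 tumors, with a median log2 fold change of 2.74, and 0 passed adjustment in limma (5 of 8 at an unadjusted p under 0.05, beside 4.66% of all genes, and 3 of 8 with GPC6 above 3xCR in every tumor, beside 2.8%). The largest log2 fold change was that of Dlx6os1 (3.11, limma unadjusted p = 0.0166, adjusted p = 0.730), a noncoding RNA of the Dlx locus, which ranged from 0 to 7.44 normalized counts among 3xCR and from 8.89 to 75.7 among GPC6 tumors.

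Of 7 further genes of the parvalbumin class, 6 had a higher mean in GPC6 tumors, 0 passed adjustment and 2 had an unadjusted p under 0.05, with a median log2 fold change of 1.89. The most abundant was Kcnc1 (1.87), a potassium channel of fast-spiking cells, the largest log2 fold change was that of Syt2 (2.40), a calcium sensor of fast release, and the smallest that of Pthlh (-0.14). Like Lhx6, Pthlh had its highest 3xCR value in replicate 4 (26.2 normalized counts, against 2.06 to 17.0 in the other 6 libraries). Of 5 genes of the somatostatin class, Cort was below the filter and the other 4 had a higher mean, with a median of 0.79 and 0 at an unadjusted p under 0.05. Crhbp (1.44) had 6.91 and 6.92 normalized counts in 3xCR replicate 4 and GPC6 replicate 2 and 40.9 to 270 in the other libraries, ranking the 7 libraries as Cck did, whereas Chodl (0.29) was highest in GPC6 replicate 4 (57.6).

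Among 8 genes of the Vip class and the caudal eminence, 5 of the 7 tested had a higher mean (median 1.47, 0 at an unadjusted p under 0.05), from Tac2, a tachykinin (2.71), to Nr2f2, a transcription factor also present in vessels (-0.22). Of 5 neurogliaform genes, 4 had a higher mean (median 0.90, 2 at an unadjusted p under 0.05). Lamp5 had the largest log2 fold change (3.45, limma unadjusted p = 0.0223, adjusted p = 0.730) and was 1853 normalized counts in GPC6 replicate 1, against 5.52 to 236 in the other libraries. The remaining transcription factors of the medial eminence had a higher mean in GPC6 tumors for 1 of the 4 tested (median -0.23), and Nkx2-1 was below the filter with 46.4 normalized counts in GPC6 replicate 1 and 0 to 1.77 elsewhere. Of these, Sox6 and Maf are also expressed by glial or immune cells.

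The libraries 3xCR replicate 4 and GPC6 replicate 2 differed in which markers were low. Set beside the 8 GABAergic genes in place of the pan-neuronal ones, 3xCR replicate 4 had relative log2 levels of 2.96 for Lhx6 (against -2.66 to -1.24 in the other 6 libraries), 5.04 for Calb1 (against -0.52 to 1.39) and 2.89 for Pvalb (against -1.90 to 0.42). In the same library Gad1 and Gad2, the enzymes that make GABA, had 91.2 and 33.1 normalized counts, the lowest of the 7 libraries. These enzymes were chosen after their values were seen. In GPC6 replicate 2, Gad1 and Gad2 had 403 and 327 normalized counts, within or above the 3xCR range (91.2 to 485 and 33.1 to 261), while Vip, Cck and Pvalb had 1.98, 6.92 and 13.8. Relative to the 8 GABAergic genes, GPC6 replicate 2 had the lowest level of the 7 libraries for Pvalb, Sst, Vip, Calb1, Calb2 and Cck. On this scale the groups did not overlap for 1 of the 10 markers, Nos1, beside 12.7% of all genes. Relative to the GABAergic genes, Nos1 was lower in GPC6 tumors by 1.15 on the log2 scale. Without the subtraction its log2 fold change was 1.32, while the 8 GABAergic genes had a median of 2.74, so the relative value is not a fall in Nos1 itself.

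Lists of regional neurons differed between the same libraries. The score of 5 cortical genes (the mean of their centered log2 values) was -2.93 in 3xCR replicate 4 and -2.47 in GPC6 replicate 2, against -0.06 to 2.90 in the other 5 libraries, and that of 8 genes of excitatory projection neurons, some of which are also in the cortical list, was -3.61 and -3.09, against -0.53 to 3.71. Emx1 of the cortical list was at 0 and 1.98 normalized counts in the same libraries. The score of 7 striatal genes, which label GABAergic projection neurons, was -2.53 in 3xCR replicate 4 and 0.40 in GPC6 replicate 2, and Ppp1r1b of this list had 34.5 and 639 normalized counts. In GPC6 replicate 4 the striatal score was -2.18 with a cortical score of 0.50, and Npy was highest relative to the pan-neuronal list (-0.25).

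The summed count of the striatal list was 525 to 2243 in 3xCR and 468 to 18670 in GPC6 tumors, with GPC6 replicate 1 highest and no gene at 0 in every library. For the cortical list it was 91.2 to 340 and 289 to 1566. Of the 7 hypothalamic genes, 4 passed the filter (Avp, Oxt, Pomc and Trh), and Avp, a peptide of the hypothalamus, had 541 normalized counts in GPC6 replicate 1 and 0 to 7.10 in the other 6. Of 4 cerebellar genes, Pcp2, Gabra6 and Cbln3 were below the filter, with Pcp2, a defining gene of Purkinje cells, at 0 to 1.77 in every library. The part of regional tissue in the marker values was not tested.

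**Figure D5:**
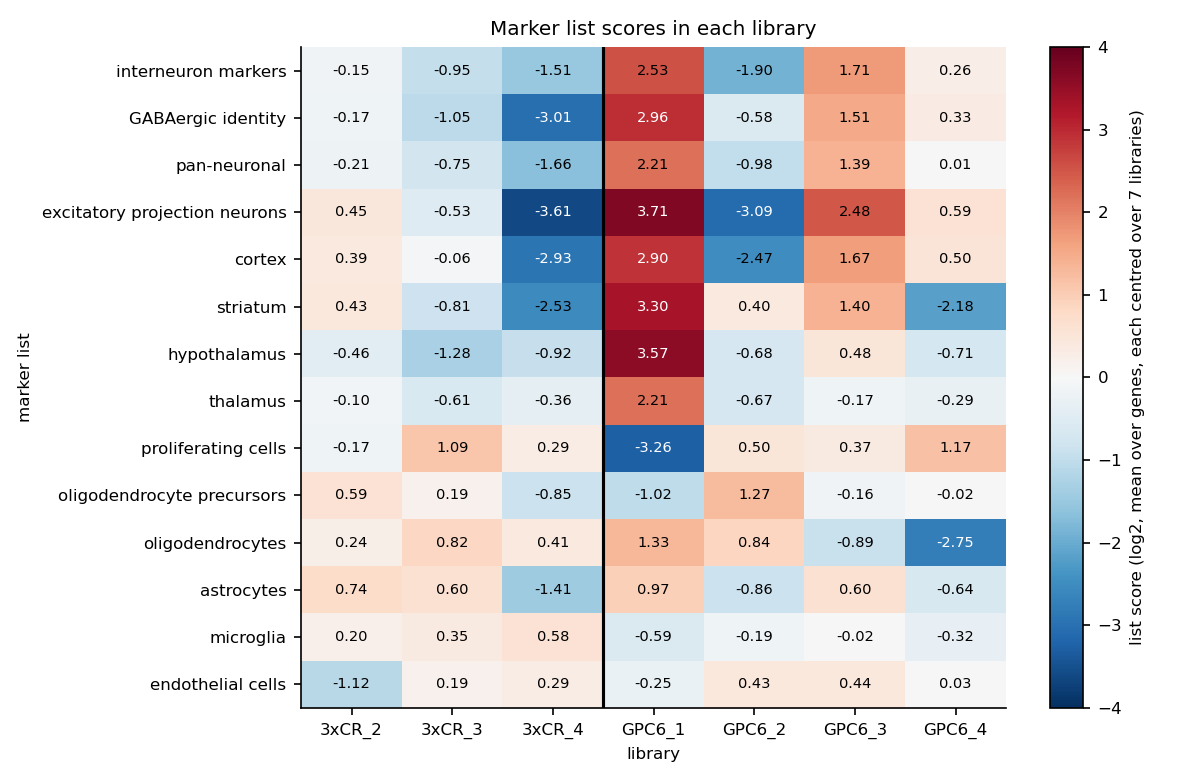
Scores of 14 marker lists (y axis) in each library (x axis, with the 3xCR libraries left of the black line), as the mean over the genes of a list of the log2(normalized count + 1) value centered over the 7 libraries. The interneuron markers are highest in GPC6 replicates 1 and 3 (2.53 and 1.71) and lowest in GPC6 replicate 2 (-1.90), where the cortical score is low (-2.47) and the striatal score is not (0.40), and the proliferation score is lowest in GPC6 replicate 1 (-3.26).

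Lists of cells other than neurons were looked at beside the markers. The 6 proliferation genes and the 5 oligodendrocyte genes had their lower mean in GPC6 tumors for 6 of 6 and 5 of 5 (median log2 fold changes of -0.68 and -0.84), and the 5 microglial genes for 5 of 5 (median -0.41, 2 of them with all GPC6 tumors below 3xCR, beside 3.52% of all genes, and with summed counts of 7126 to 10220 in 3xCR and 5329 to 6727 in GPC6 tumors). The 5 genes of oligodendrocyte precursors, the 5 of astrocytes and the 4 of endothelial cells had medians of 0.03, 0.05 and 0.35, and the 4 of choroid plexus and the 3 thalamic genes that passed the filter -1.33 and -0.0093. The choroid plexus sum was 12469 in GPC6 replicate 1, 175 to 3637 in the 3xCR tumors and 30.9 to 86.0 in the other GPC6 tumors. None of the genes in these lists passed adjustment in limma. GPC6 replicate 1, in which 8 of the 10 interneuron markers were highest, had the lowest proliferation score.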

How the data were processed

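RNA of bulk tumor tissue was measured in stranded mRNA libraries, where the authors aligned reads to mm10 with STAR 2.5.0a, counted them on genes and normalized them with DESeq2 1.20.0. The deposited signal is a count over the size factor of its library, without correction for length. Of 19282 entries, 25 had names turned into dates (0.254% to 0.361% of reads) and were left out. Dividing each value by that of 1 read gave whole numbers for 100% of values (within 0.01), and so the reads. Groups were compared with limma 3.58.1 (R 4.3.3) on log2(normalized count + 1), a scale that understates the fold change of genes with few reads, over genes with a mean of at least 10, two-sided, with Benjamini-Hochberg adjustment. Since the deposited values are normalized, edgeR 4.0.16, DESeq2 1.42.0 and voom on recovered reads were alternatives. Scripts were tested on simulated data. Exon lengths and coordinates came from GENCODE M21 (GRCm38).

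The markers and lists were chosen with earlier results of these data known. The rule named all 10 markers, Gpc6, from each list the gene of highest mean and of largest and smallest log2 fold change, and the 2 genes most like each marker; other genes named, and genes below the filter, were chosen after their values were seen. Some genes that the rule names are not reported here. That libraries came from separate brains is stated by the study, and p-values measure the spread between them.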

Additional observations from a re-analysis of the deposited data

Results flagged for a closer look

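Dixon's test (95% level) was applied to the highest and lowest of the 4 GPC6 libraries. Of 20 quantities looked at, the log2 value and the level relative to the pan-neuronal list of each of the 10 markers, 3 passed it, where chance gives about 1. All were relative levels of GPC6 replicate 2. Its relative log2 level was -6.90 for Vip, with the other 3 between -3.59 and -3.10, and -5.49 for Cck, with the other 3 between -1.32 and -0.49. For Reln it was -1.01, above the others, which lay between -3.01 and -2.67. In 3xCR tumors the relative levels ranged from -7.79 to -3.54 for Vip, from -4.80 to -1.44 for Cck and from -2.25 to -0.92 for Reln. The value of Vip rests on 2 reads in that library and depends on the pseudocount. The 3xCR group, with 3 libraries, was not examined in this way.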

How the results depend on the processing

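Of 210 marker fold changes recomputed under 21 alternatives, 192 kept their direction and side of the threshold, 11 reversed and 7 passed it. With the pan-neuronal covariate the median was -0.26, with Pvalb at -0.94, Sst at -0.048, Vip at -0.96, Calb1 at -0.27, Calb2 at -0.10, Lhx6 at -0.38, Npy at -0.26, Cck at -1.38 and Nos1 at -0.16. Library weights (arrayWeights) called 7 markers (all but Pvalb, Vip and Cck) and 1962 genes (13.3%) at an adjusted p under 0.05. Unadjusted, 9 markers passed, beside 34.5% of all genes. The weights ran from 0.301 (GPC6 replicate 1) to 8.71 (3xCR replicate 3), with 4.47 for GPC6 replicate 3. DESeq2 called 4 genes, no marker, and had 4 markers at an unadjusted p under 0.05 (beside 9.77% of its 18973 genes). There were 2 in edgeR (beside 6.7% of 14782 genes) and 0 in voom (beside 3.38% of the same). Without GPC6 replicates 1 and 2, 4 markers had an unadjusted p under 0.05 (beside 6.09% of all genes) and 6 did not overlap (beside 23.7%). Then 3 did not overlap relative to the pan-neuronal list (beside 57.3%). With all 7 libraries and the GABAergic list in its place, 1 did not overlap (beside 12.7%). Leaving out each library in turn, markers at an unadjusted p under 0.05 ranged from 0 to 7 and those not overlapping from 0 to 6. Both were highest without GPC6 replicate 2 (beside 9.45% and 16.1% of all genes). Without GPC6 replicate 4 there was 1 of each, Reln (beside 7.83% and 14.4%). Markers not overlapping relative to the pan-neuronal list ranged from 0 to 2. There were 2 without GPC6 replicate 2 (beside 55.4%) and 1 without 3xCR replicate 2 (beside 28.8%). The median was lowest, 0.82, without GPC6 replicate 1 and highest, 2.26, when GPC6 replicate 2 was left out. Pvalb ranged from -0.12 (without GPC6 replicate 1) to 1.49. Cck was 0.78 and Vip 0.89 without 3xCR replicate 4. Except where a value above shows it, the cause was not tested. Scaling moved the share of higher genes at an unadjusted p under 0.05 from 58.8% to 68.0% (equal total) and 46.9% (upper quartile). With DESeq2, on its own set of genes, the share was 69.8%, and 10 of 10 markers were higher in each. The groups share replicate numbers, but same-numbered libraries did not all deviate together (r = -0.19, 0.12 and 0.30 for replicates 2, 3 and 4), so the numbers were not taken as pairs. A replicate block gave a median of 0.82, Pvalb at -0.12 and 0 markers called, and changed no other marker's direction. Overlap of groups has no value under other tools, weights, filters, the block or the covariate.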
